A study of Homo sapiens with 2 samples.

Results

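Interferon-stimulated genes are the genes a cell transcribes when an interferon binds its receptor, and 47 of them, listed by symbol, were followed here among the 60612 genes measured in the human pancreatic ductal adenocarcinoma line L3.6. RNA sequencing of poly(A) RNA gave 1 library of L3.6-shCtrl cells and 1 library of L3.6-shESE1 cells. The shESE1 cells carried a lentiviral shRNA against ESE1, an epithelial ETS-family transcription factor encoded by ELF3. The study's methods describe a non-targeting shRNA in the control, selection of both lines with puromycin and the use of pooled resistant clones, whereas the label of the control states no treatment. The sources used here do not say which of the ESE1 shRNAs was sequenced. Neither library is labelled as treated with an interferon.

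Type I and type III interferons act through the kinases JAK1 and TYK2, which activate STAT proteins. STAT2 binds IRF9, and their complex, ISGF3, binds a DNA element called the interferon-stimulated response element (ISRE) in the promoters of its target genes. The products of those genes sense viral RNA, block entry, translation or replication of viruses, or modify other proteins with the ubiquitin-like protein ISG15. Many carcinoma lines express part of this set without added interferon.

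Levels were measured as FPKM, in which fragments are divided by the length of the gene and the size of the library, and as whole-number counts, which summed to 56853971 for shCtrl and 60786475 for shESE1. Of all genes, 12520 reached 1 FPKM in either library or both. For these the change was log2((shESE1 FPKM + 1)/(shCtrl FPKM + 1)). The added 1 FPKM makes the change of weakly expressed genes look smaller than it was. Ratios are given without the added 1 FPKM, with an exact 95% interval that covers counting error only. With 1 library per condition there was no replicate check, so no p-value was computed, and every value describes these libraries. The median log2 change of all 12520 genes was 0.02. ELF3 was at 20.4 FPKM in shCtrl and 10.7 FPKM in shESE1, so its transcript was lower where the label says knockdown. Counts of mitochondrially encoded genes made up 12.4% of the shCtrl total and 3.79% of the shESE1 total, and FPKM values of all other genes depend on this share. In such bulk samples, fewer cells of a type and less RNA per cell cannot be told apart.

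The interferon-stimulated genes did not move as a block. IFI6, IFI27 and ISG15 were 6.29- to 12.2-fold higher in shESE1 than in shCtrl cells, while most other members lay within 2-fold and the abundant IFITM3 was at nearly the same level in both libraries. Of the 47 genes, 40 reached 1 FPKM, 34 of them in both. HERC5, OASL, MX1 and CMPK2 passed through shESE1 alone, and ISG20 and SAMD9L through shCtrl alone. Of the 40 genes, 3 (7.5%) were at least 2-fold higher in shESE1, against 3.14% of all genes, and 0 were at least 2-fold lower, against 3.26% of all genes. At a threshold of 1.5-fold, 12 of the 40 (30%) were higher, beside 12.2% of all genes, and 2 of the 40 were lower, beside 11.5%. A gene that passed the filter through its higher library alone had to differ. Among the 34 genes at 1 FPKM in both libraries, 3 (8.82%) were at least 2-fold higher and 0 at least 2-fold lower. These stand beside 2.80% and 2.22% of the 11051 such genes. At 1.5-fold, 9 of the 34 were higher beside 12.0%, and 1 of the 34 was lower beside 8.86%. The log2 change was above 0 for 25 of the 40 genes (62.5%) and for 51.5% of all genes. The median of the 40 changes was 0.17, and 0.10 without IFI6, IFI27 and ISG15. Over genes that reached 5 FPKM, the median was 0.17 for 26 members and 0.15 for all genes, which were nearly equal.

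**Figure D1:**
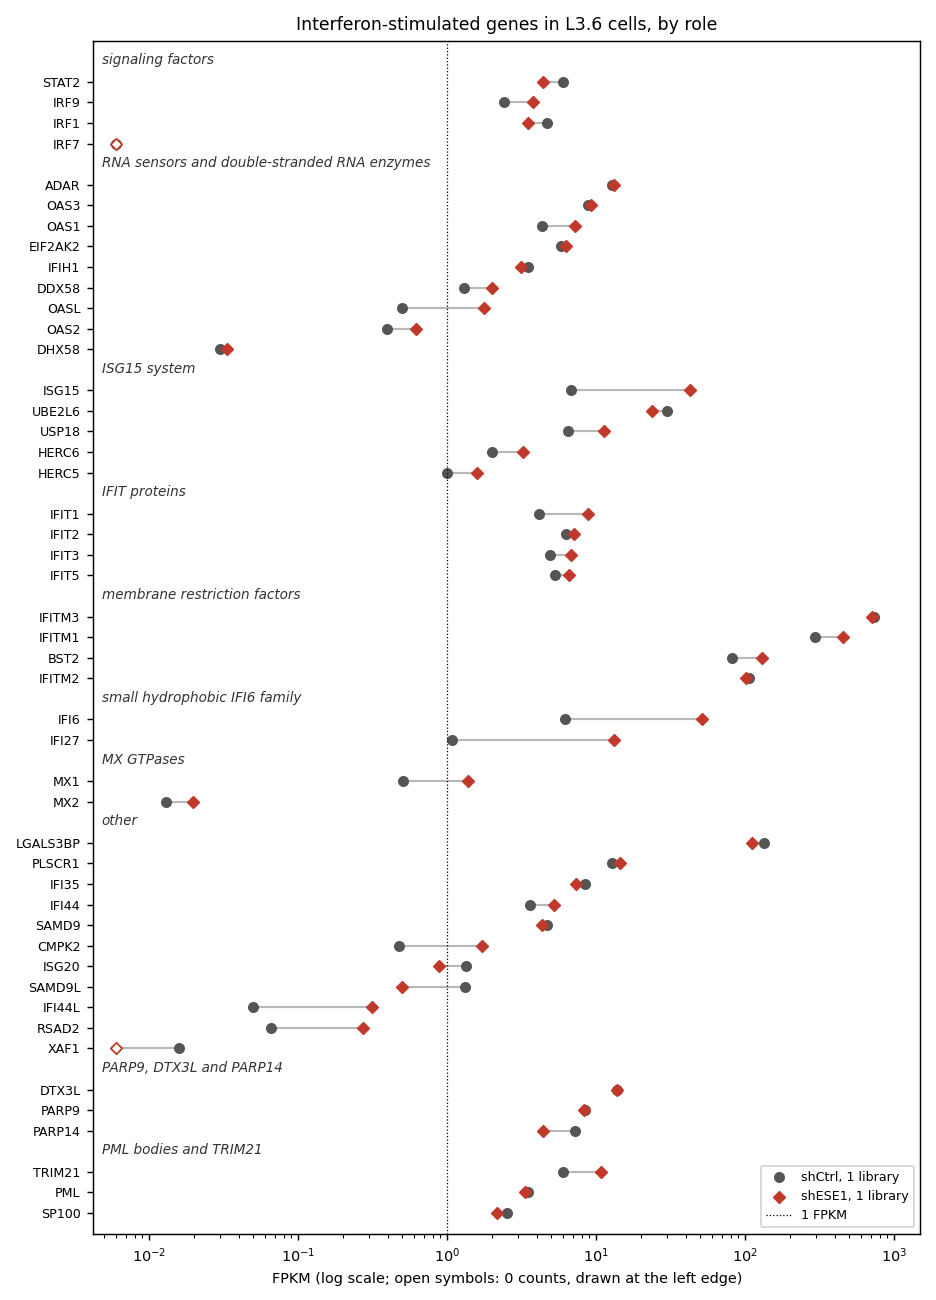
FPKM (log axis) of the 47 interferon-stimulated genes in the shCtrl library (circles) and the shESE1 library (diamonds), grouped by role, with open symbols for 0 counts and a dotted line at 1 FPKM. IFI6, IFI27 and ISG15 have the widest gaps of the genes above 1 FPKM, and IFITM3 is at 735 and 706 FPKM.

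The promoters of 6 genes are shown because they carry the contrast in these data. By log2 change with 1 FPKM added, IFI6, IFI27 and ISG15 had the largest increases and IFIT1 came next. IFITM3 had the highest level and hardly differed, and SAMD9L had the lowest change. Each sequence is the 250 bases before the annotated start in RefSeq (GRCh38.p14), read 5′ to 3′ on the gene's strand. Capitals mark matches on either strand to the core of the ISRE, that is GAAA, any 2 bases and GAAA.
IFI6: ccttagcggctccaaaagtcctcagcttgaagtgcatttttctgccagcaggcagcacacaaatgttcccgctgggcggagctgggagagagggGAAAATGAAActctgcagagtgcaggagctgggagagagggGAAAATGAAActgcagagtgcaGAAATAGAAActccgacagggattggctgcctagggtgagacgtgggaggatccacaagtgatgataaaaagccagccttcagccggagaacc
IFI27: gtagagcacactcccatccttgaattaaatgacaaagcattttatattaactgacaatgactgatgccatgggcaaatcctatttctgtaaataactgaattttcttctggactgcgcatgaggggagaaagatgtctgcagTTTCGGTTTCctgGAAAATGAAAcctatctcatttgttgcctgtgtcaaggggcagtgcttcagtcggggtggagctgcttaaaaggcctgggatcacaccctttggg
ISG15: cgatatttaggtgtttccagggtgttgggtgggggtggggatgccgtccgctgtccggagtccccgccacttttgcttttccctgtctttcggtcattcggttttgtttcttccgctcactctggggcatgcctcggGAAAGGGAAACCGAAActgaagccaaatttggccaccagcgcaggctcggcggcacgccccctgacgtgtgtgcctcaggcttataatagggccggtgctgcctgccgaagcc
IFIT1: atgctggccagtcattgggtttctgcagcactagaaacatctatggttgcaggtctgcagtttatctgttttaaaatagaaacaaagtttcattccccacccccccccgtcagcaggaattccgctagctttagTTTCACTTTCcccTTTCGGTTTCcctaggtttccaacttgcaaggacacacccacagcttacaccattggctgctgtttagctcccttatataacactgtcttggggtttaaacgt
IFITM3: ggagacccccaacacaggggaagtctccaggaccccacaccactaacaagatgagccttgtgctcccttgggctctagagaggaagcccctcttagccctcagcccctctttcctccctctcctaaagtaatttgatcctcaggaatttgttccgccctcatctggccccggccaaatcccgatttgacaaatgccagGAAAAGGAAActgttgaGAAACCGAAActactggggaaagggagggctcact
SAMD9L: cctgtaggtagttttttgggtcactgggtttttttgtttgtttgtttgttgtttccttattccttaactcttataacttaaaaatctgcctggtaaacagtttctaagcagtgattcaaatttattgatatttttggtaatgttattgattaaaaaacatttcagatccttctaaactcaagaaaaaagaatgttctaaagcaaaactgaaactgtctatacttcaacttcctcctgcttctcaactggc
The windows lie at chr1:27672193-27672442 (minus strand), chr14:94110486-94110735 (plus), chr1:1013247-1013496 (plus), chr10:89392373-89392622 (plus), chr11:320861-321110 (minus) and chr7:93148386-93148635 (minus). IFI27 has a second annotated start further downstream, whose window is not printed and holds the same pair of matches.

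In IFI6 the 3 matches began at positions -156, -115 and -93 relative to the start, all on the gene's strand. In ISG15 the 2 matches began at -113 and -107 and overlapped. In IFI27 one match lay on the other strand from position -108 and one on the gene's strand from -95, and in IFIT1 both lay on the other strand, from -116 and -103. In IFITM3 the matches began closer to the start, at -52 and -35. The SAMD9L window held no match, which says only that these letters are not in it. Among these windows, picked by change or level, the ISRE core was in IFITM3 and in the genes with the largest changes. The part of the ISRE in these changes was not tested.

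Promoter windows of 300 bases, 250 before and 50 after the start, were found for 38 of the 47 genes. DHX58, IFIT2, IFITM2, IRF7, MX2, OAS2, OASL, PML and USP18 were not matched. The ISRE core was in a window of 25 of the 38 genes (65.8%) and of 4.38% of 27305 genes with a window. The STAT dimer pattern GAS (TTCNNNGAA) was in 26.3% of the members and 9.38% of all genes. The ETS pattern searched, CCGGAAG, was in 10.5% of the members and 12.2% of all genes. Other forms of the sites that ETS factors bind were not searched. Both strands were searched, and a gene with several starts was counted once. Of 50 ISRE matches counted per window, 10 overlapped another ISRE match, 7 a GAS match and 0 an ETS match. The ETS pattern can share only an end base with the ISRE core, so that 0 carries little weight. Among the 35 genes with a window and at least 1 FPKM, the median log2 change was 0.27 for the 23 with the ISRE core and −0.06 for the 12 without it. The changes were positive in 16 of the 23 and in 6 of the 12, so both groups held genes on both sides of 0. A match is a description of the letters and not a measured binding site.

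**Figure D2:**
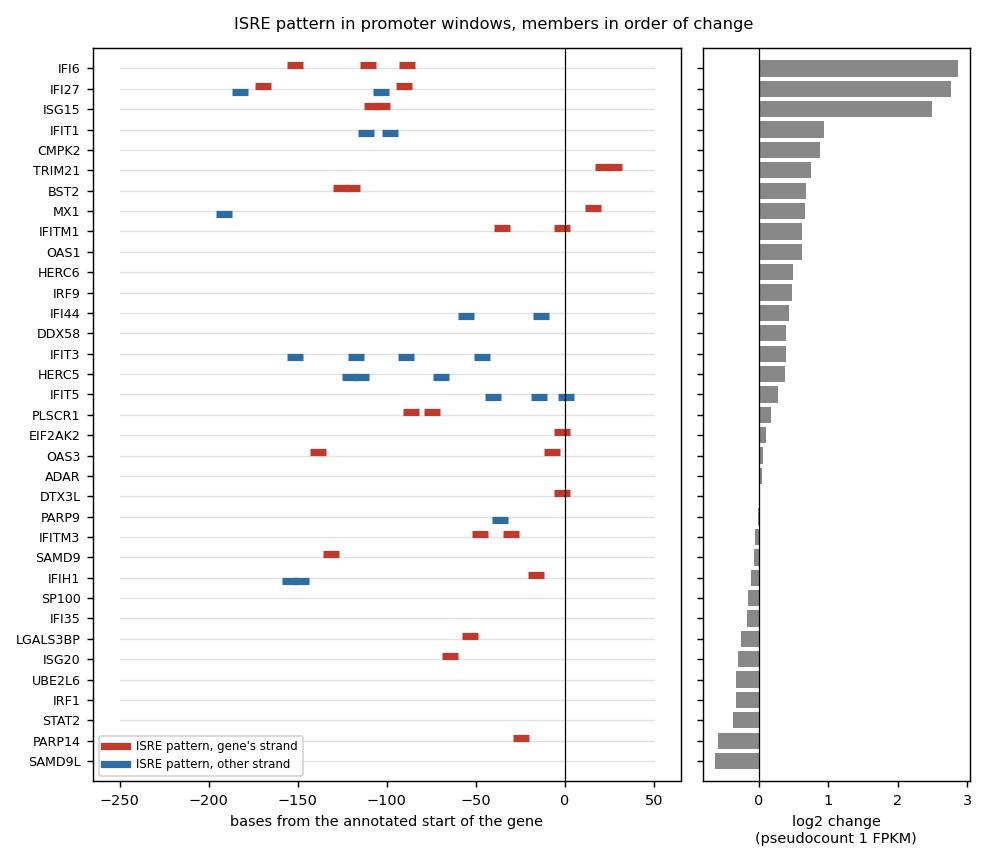
Left, position of ISRE core matches in bases from the annotated start for the 35 genes with a promoter window and at least 1 FPKM, in order of change, with matches from all starts of a gene drawn together. Right, log2 change with a pseudocount of 1 FPKM. The top 4 genes have matches, and CMPK2, which comes next, has none. Near the bottom PARP14, ISG20 and LGALS3BP have matches, whereas SAMD9L, STAT2, IRF1 and UBE2L6 have none.

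IFI6 and IFI27 encode small hydrophobic proteins of one family. IFI6 acts against flaviviruses at the endoplasmic reticulum, and IFI27 is found at mitochondria and the nuclear envelope. IFI6 (ENSG00000126709) was at 6.16 FPKM in shCtrl and 51.0 FPKM in shESE1, from 350 and 3152 counts. Its ratio was 8.29 (interval 7.42 to 9.28) and its log2 change 2.86, which ranked 14 among all 12520 genes. IFI27 (ENSG00000165949) was at 1.08 FPKM in shCtrl and 13.2 FPKM in shESE1, from 306 and 4009 counts. Its ratio of 12.2 (10.8 to 13.7) was the largest of the 45 members with counts in both libraries, and its log2 change was 2.76. The FPKM of IFI27 implies a length of 5.01 kb. Its merged exons have 4.15 kb, whereas its median coding transcript has 0.62 kb. By counts, IFI27 had more reads than IFI6 and ISG15 in shESE1.

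ISG15 is a ubiquitin-like protein that is joined to other proteins and also secreted. ISG15 (ENSG00000187608) was at 6.78 FPKM in shCtrl and 42.6 FPKM in shESE1, from 396 and 2714 counts, a ratio of 6.29 (5.66 to 7.01) and a log2 change of 2.49. The enzymes of its pathway did not share that size of change. UBE2L6, the enzyme that carries ISG15 before transfer, was at 30.0 FPKM in shCtrl and 23.6 FPKM in shESE1 (log2 change −0.33). HERC5, the main human ligase for ISG15, was at 0.995 and 1.59 FPKM, and its neighbour HERC6, which has that role in mouse, at 1.99 and 3.20 FPKM. USP18, which removes ISG15 from proteins and also restrains the type I interferon receptor, was at 6.49 FPKM in shCtrl and 11.2 FPKM in shESE1 (0.71). The median log2 change of these 5 genes was 0.49, and 4 of the 5 were positive under every scaling tried. UBE2L6, the most abundant of them in shCtrl, was negative. UBA7, which activates ISG15 and was on the list of further pathway genes, was at 1.85 FPKM in shCtrl and 0.803 FPKM in shESE1. From 572 and 271 counts, its ratio was 0.433 (0.374 to 0.502) and its log2 change −0.66. UBA7 passed the filter through shCtrl alone, where it is high.

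The IFIT proteins bind viral RNA or translation factors, and IFIT1 recognises RNA that lacks the cap methylation of host mRNA. Of the 4 IFIT genes, which lie together within 137 kb of chromosome 10, all had a log2 change above 0, from 0.16 to 0.94 in the FPKM values and from 0.05 to 1.29 over all scalings and pseudocounts. IFIT1 was at 4.12 FPKM in shCtrl and 8.83 FPKM in shESE1, from 1281 and 2990 counts. Its ratio was 2.14 (2.01 to 2.29), which is past 2-fold, but its log2 change of 0.94 was not. IFIT2 was at 6.25 and 7.13 FPKM, IFIT3 at 4.90 and 6.73 FPKM, and IFIT5 at 5.33 and 6.61 FPKM. In shCtrl IFIT1 had the lowest FPKM of the 4 genes and in shESE1 the highest.

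The RNA sensors and double-stranded RNA enzymes had a median log2 change of 0.10 over 7 measured genes. DDX58, which encodes the sensor RIG-I, was at 1.29 FPKM in shCtrl and 2.00 FPKM in shESE1 (0.39), while IFIH1, which encodes the sensor MDA5, was at 3.47 and 3.12 FPKM (−0.12). The sensors of cytosolic viral RNA thus had changes of opposite sign in the FPKM values, although that of IFIH1 was positive as TPM. The kinase gene EIF2AK2, which encodes PKR, was at 5.81 and 6.31 FPKM. ADAR, which edits double-stranded RNA and had the highest level of this group in shCtrl, was at 12.7 and 13.2 FPKM. The changes of both, 0.10 and 0.05, turned negative when the totals excluded mitochondrial genes. The oligoadenylate synthetases activate RNase L when they meet double-stranded RNA. OAS1 was at 4.35 FPKM in shCtrl and 7.17 FPKM in shESE1 (0.61), and its neighbour OAS3 at 8.75 and 9.16 FPKM (0.06), a change that turned negative in the same setting. OASL, which lacks synthetase activity and aids RIG-I, was at 0.500 and 1.75 FPKM from 119 and 453 counts. Its ratio was 3.51 (2.86 to 4.33) and its log2 change 0.88, the largest of this group. OAS2 stayed below 1 FPKM with 168 and 286 counts, a ratio of 1.56, and DHX58, the gene of the sensor LGP2, had 9 and 10 counts.

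Of the signaling factors, STAT2 was at 5.94 FPKM in shCtrl and 4.38 FPKM in shESE1 (−0.37), and IRF1, a transcription factor that can induce part of the set without ISGF3, at 4.66 and 3.47 FPKM (−0.34). Both changes were negative under every scaling. IRF9, the DNA-binding partner of STAT2 in ISGF3, was at 2.41 and 3.75 FPKM (0.48). That value is uncertain, since 62.7% of the IRF9 sequence is shared with the overlapping gene AL136295.5 on the same strand, which had 2248 and 4359 counts. IRF7, an amplifier of interferon production, was listed at 0 counts in both libraries, and the files do not show whether reads of IRF7 could be counted. STAT2 and IRF9 thus differed in sign, and neither was past 2-fold.

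The membrane proteins made up most of the signal of the set. IFITM1, IFITM2 and IFITM3 block the fusion of viruses with cell membranes, and BST2 (tetherin) holds budding virions at the cell surface. Together with LGALS3BP, a secreted glycoprotein that binds galectin-3, they held 87.2% of the summed FPKM of the 47 genes in shCtrl and 82.9% in shESE1. IFITM3 was at 735 FPKM in shCtrl and 706 FPKM in shESE1 (−0.06), and IFITM2 at 106 and 101 FPKM (−0.08). Both signs turned positive as TPM, and that of IFITM3 also after TMM scaling. IFITM1 was at 295 FPKM in shCtrl and 453 FPKM in shESE1 (0.62), from 18566 and 31139 counts. IFITM1 shares 38.1% of its sequence with other genes, mainly with IFITM2, so its value is uncertain. BST2 was at 81.3 and 130 FPKM (0.67), a ratio of 1.60 (1.55 to 1.65). LGALS3BP was at 134 and 112 FPKM (−0.26, or 0.01 as TPM). The 3 IFITM genes, which lie within 19.9 kb of chromosome 11, summed to 1135 FPKM in shCtrl and 1260 FPKM in shESE1, a ratio of 1.11, and thus differed far less than the genes at the top of the list.

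Further antiviral effectors were found on both sides of 0. TRIM21, a cytosolic antibody receptor and ubiquitin ligase, was at 6.03 FPKM in shCtrl and 10.8 FPKM in shESE1 (0.75). The dynamin-like GTPase gene MX1 was at 0.508 and 1.38 FPKM from 298 and 879 counts, a ratio of 2.72 (2.38 to 3.11), whereas its neighbour MX2 had 12 and 19 counts. CMPK2, a mitochondrial nucleotide kinase, was at 0.478 and 1.70 FPKM from 140 and 540 counts, a ratio of 3.56 (2.95 to 4.32). Its divergent neighbour RSAD2 (viperin), which makes a chain-terminating nucleotide, had 21 and 95 counts, a ratio of 4.13 (2.56 to 6.98). These neighbours had ratios of like size. IFI44L had 35 and 239 counts, a ratio of 6.27 (4.38 to 9.21), although its neighbour IFI44 had a ratio of only 1.44 (1.29 to 1.62). IFI44L and RSAD2 stayed below 1 FPKM in both libraries and so do not enter the 40 genes.

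The genes with the lowest changes were SAMD9L and PARP14. SAMD9L, a growth-restraining antiviral gene, was at 1.33 FPKM in shCtrl and 0.496 FPKM in shESE1, from 639 and 261 counts, a ratio of 0.374 (0.322 to 0.432) and a log2 change of −0.64. Its paralog and neighbour SAMD9 was at 4.65 and 4.36 FPKM (−0.08). PARP14, a mono-ADP-ribosyltransferase, was at 7.16 and 4.40 FPKM (−0.60), while PARP9 and its partner DTX3L, which lie in the same 203 kb of chromosome 3, had log2 changes of −0.02 and 0.01. ISG20, an exonuclease, was at 1.33 and 0.880 FPKM (−0.31). IFI35 (−0.17), SP100 (−0.16) and PML (−0.06) were slightly below 0 and PLSCR1, a phospholipid scramblase, was above it (0.17). The pro-apoptotic gene XAF1 had 8 counts in shCtrl and 0 in shESE1. Set against a floor of 3 counts it was 2.91-fold lower in shESE1, a value that leaves out the counting error of the 8 counts. Members that sit side by side in the genome thus had like ratios in some pairs, such as HERC5 and HERC6 at 1.60 and 1.61, and unlike ones in others.

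**Figure D3:**
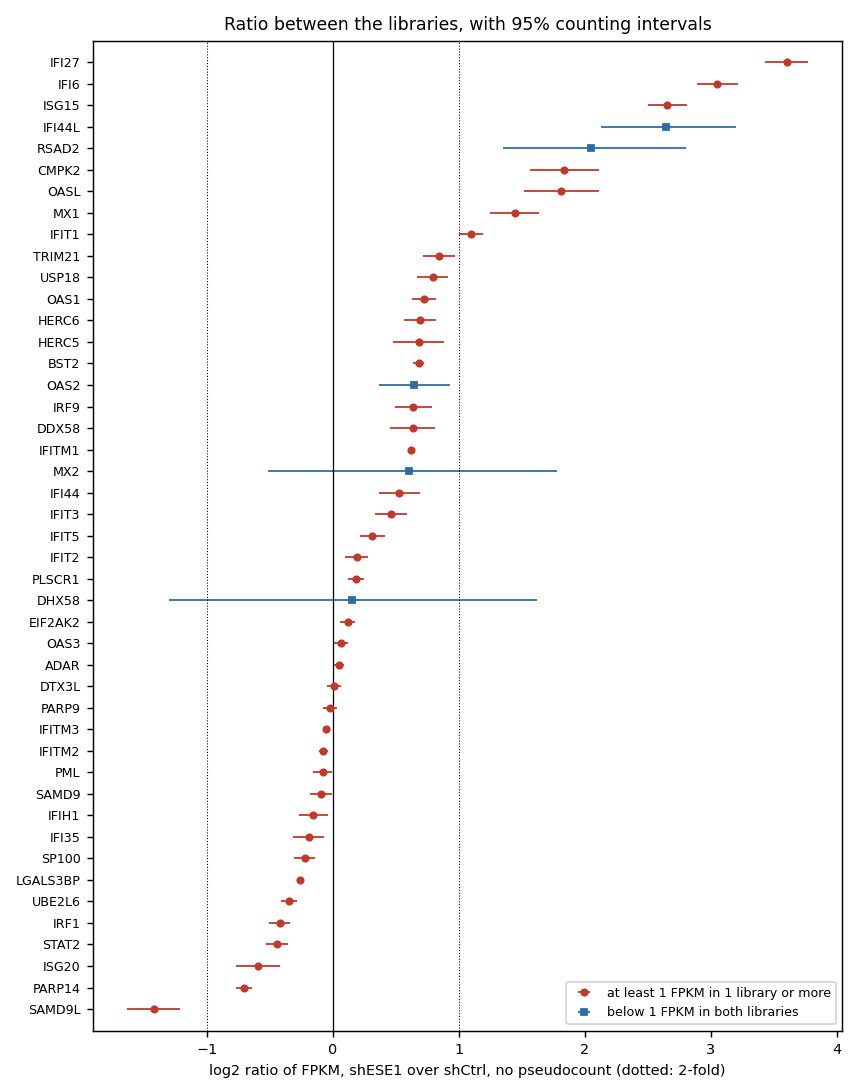
Log2 ratio of FPKM between shESE1 and shCtrl without a pseudocount for the 45 members with counts in both libraries, with 95% exact counting intervals, and dotted lines at 2-fold. IFI27, IFI6 and ISG15 head the list, IFI44L and RSAD2 follow with wider intervals, and only SAMD9L lies past 2-fold on the lower side.

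Without a pseudocount, 7 of the 40 genes past the filter were at least 2-fold higher, beside 5.36% of all genes. At least 2-fold lower was 1 of the 40, beside 8.29%. Of these 7, CMPK2, MX1 and OASL passed the filter through shESE1 alone, where they are high, and the lower gene, SAMD9L, through shCtrl alone. Over the 34 genes at 1 FPKM in both libraries, 4 were higher beside 4.03% of all such genes, and 0 were lower beside 4.36%. The counting interval lay above 0 for 24 of the 40 genes (60%), against 43.9% of all genes, and below 0 for 14 (35%), against 41.0% of all genes. At this depth, counting error was therefore small next to most differences, and the spread between cultures was not measured. As TPM, 9 of 42 members were at least 2-fold higher beside 8.72% of all genes, and 0 were lower beside 5.32%. As CPM with TMM scaling, 8 of 43 were higher beside 4.51% of all genes, and 1 was lower beside 6.21%. IFI6, IFI27 and ISG15 were past 2-fold under every setting tried, with lowest log2 changes of 2.33, 1.58 and 2.02. Of the 40 genes, 21 had a positive and 6 a negative change under all scalings and pseudocounts, and the sign of the other 13 depended on the setting. These were IFIH1, EIF2AK2, ADAR, OAS3, IFITM2, IFITM3, IFI35, SAMD9, LGALS3BP, PARP9, DTX3L, PML and SP100, all with main changes of at most 0.26 in size.

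**Figure D4:**
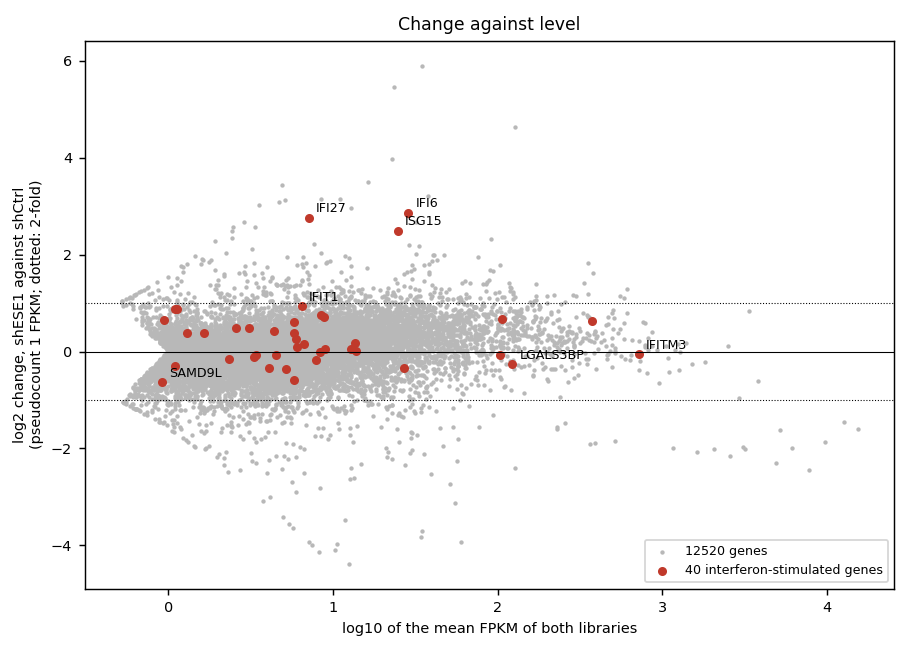
Log2 change of the 12520 compared genes (grey) against the log10 of their mean FPKM, with the 40 interferon-stimulated genes in red and dotted lines at 2-fold. IFI6, IFI27 and ISG15 stand apart, while the other 37 members lie between −0.64 and 0.94.

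The change varied with gene length in these libraries. FPKM divides by a length that followed the merged exons of a gene in GENCODE release 29. Across 12462 genes, Spearman's rho between the log2 change and that length was −0.20, and across the 40 members it was −0.47, or −0.39 without IFI6, IFI27 and ISG15. These are descriptions across genes, which share the same 2 libraries and are not independent. IFI6, at 0.865 kb, and ISG15, at 0.941 kb, are short genes. Among genes under 1.5 kb, 5.65% of all genes were at least 2-fold higher, and among genes of 4 kb or more 1.63%. With the length trend removed, IFI6, IFI27 and ISG15 remained the only 3 members past 2-fold and the median of the set was 0.19. The part of length in the other changes was not tested.

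**Figure D5:**
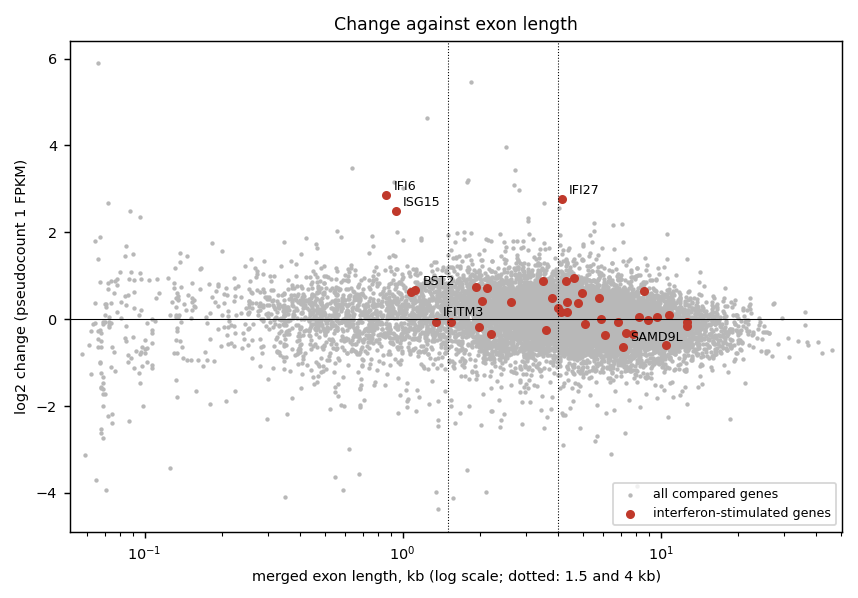
Log2 change of all compared genes (grey) and of the interferon-stimulated genes (red) against merged exon length in kb on a log axis, with dotted lines at 1.5 and 4 kb. IFI6 and ISG15 lie among the short genes and IFI27 at 4.15 kb.

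Transcripts of the genes upstream of this set were read in the same way, and the activity of the pathway was not measured. Of 20 type I and type III interferon genes, 18 had no counts in either library, IFNE had 45 counts in shCtrl and 8 in shESE1, and IFNL1 had 0 and 4. IFNG had none. With 0 counts in a library, counting error allows up to 3 counts, and the files do not show whether reads of every gene listed at 0 could be counted. The 6 receptor genes all had at least 1 FPKM. IFNAR1 was at 4.37 FPKM in shCtrl and 2.77 FPKM in shESE1, and IFNAR2, the other chain of the type I receptor, at 1.73 and 2.66 FPKM. IFNGR1, IFNGR2, IL10RB and IFNLR1 had log2 changes between −0.25 and 0.06. Of the kinases, JAK1 was at 7.58 and 4.35 FPKM, TYK2 at 6.55 and 7.59 FPKM, and JAK2 below 1 FPKM. None of these receptor and kinase genes was past 2-fold.

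The wider pathway held genes that were much lower in shESE1. Of 99 further genes of the pathway, from a list made by role, 63 had at least 1 FPKM, and their median log2 change was −0.11, or 0.08 as TPM. Of the 63, 0 were at least 2-fold higher, beside 3.14% of all genes, and 5 (7.94%) at least 2-fold lower, beside 3.26%. As TPM, 1 of 70 was higher and 5 were lower, beside 8.72% and 5.32% of all genes. Among the 63, 6 passed the filter through shCtrl alone, SLFN5 and GBP2 included, and 1 through shESE1 alone. Over the 56 at 1 FPKM in both libraries, 0 were higher beside 2.80% of all such genes, and 4 were lower beside 2.22%. SLFN5, a Schlafen family gene, was at 5.95 FPKM in shCtrl and 0.454 FPKM in shESE1 (−2.26), and SLFN11, which blocks stressed replication forks, at 17.2 and 6.80 FPKM (−1.22). TNFSF10, the death ligand TRAIL, was at 46.7 and 12.9 FPKM (−1.78). CASP1, the inflammasome protease, was at 8.04 and 3.07 FPKM (−1.15), and WARS1, a tRNA synthetase strongly induced by interferon gamma, at 41.2 and 18.0 FPKM (−1.15). Of these 5 decreases, that of SLFN5 was 13.1-fold by ratio and the others were 2.29- to 3.61-fold, next to increases of 6.29- to 12.2-fold for IFI6, IFI27 and ISG15. GBP2, a guanylate-binding protein gene, was at 1.52 and 0.271 FPKM from 741 and 144 counts, a ratio of 0.178 (0.148 to 0.213), and its log2 change of −0.99 fell just short of 2-fold. Without a pseudocount, 9 of the 63 were lower beside 8.29% of all genes, and with one of 0.1, 9 beside 7.65%. With mitochondrial genes left out, 8 were lower beside 4.42%, and with a pseudocount of 5, 3 beside 0.879%. As unscaled CPM, 8 of 70 were lower beside 6.70%, and with TMM scaling 6 of 70 beside 6.21%.

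Markers of other cell types were checked, since immune cells express much of this set. All 6 epithelial markers were above 1 FPKM, from 16.3 to 464 FPKM in shCtrl. KRT7, KRT8, KRT18 and KRT19 had log2 changes of 0.21 to 0.38 and EPCAM one of −0.10, whereas CDH1, which encodes E-cadherin, was at 16.3 and 6.95 FPKM (−1.13). Of 9 leukocyte markers, PTPRC, CD3E, CD14, LYZ and CLEC4C had 0 counts in both libraries, and CD68, which other cells also express, was the only one above 1 FPKM, at 3.70 in shCtrl and 7.94 in shESE1. Leukocyte markers summed to 3.92 and 8.00 FPKM, fibroblast markers to 5.13 and 2.40 FPKM with COL1A2 and DCN at 0 counts, and endothelial markers to 1.90 and 1.32 FPKM. Of the lists other than epithelium, only COL1A1 and CDH5 also reached 1 FPKM. Their part in the changes of the interferon-stimulated genes was not tested.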

How the data were processed

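RNA-seq of poly(A) RNA from L3.6 cells, with strand-specific paired-end libraries, was available for 1 shCtrl and 1 shESE1 sample. Per gene, the authors deposited FPKM, in which genes without reads stand at 0.0001, which was set to 0 here. The authors' files also hold deposited counts per gene, as whole numbers without normalization. Per the submitters' processing notes, StringTie, HISAT2 and fastp were used, with GRCh38 and mm10 as builds. The sources used here give neither their roles and versions nor whether counting used strand, so reads of overlapping genes on opposite strands may not be separated.

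The members and all gene lists were chosen with earlier results of these data known. Every member was named or counted. Members past 2-fold and those with the largest change or highest level of each role were described with values, as were, of the other pathway genes, those past 2-fold, receptors and JAK genes. An item withheld from this text is not reported here. Further genes were named after their values were seen. Of the listed symbols, 4 were matched through RefSeq synonyms.

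The log2 change used a pseudocount of 1 FPKM and a filter of 1 FPKM in at least 1 library, and changes of 2-fold or more were counted in each direction. Ratio intervals (95%) came from exact Clopper-Pearson bounds on the part of a gene's counts that belonged to shESE1. A library at 0 counts was set at a floor of 3 counts. Intervals and floors cover counting error only. Sequence shared between genes was taken from GENCODE release 29 transcripts by words of 100 bases at steps of 10 bases, and genes sharing at least 20% were called uncertain. The calculation was tested on simulated counts. Python 3.11.15 was used with pandas 2.3.3, numpy 2.4.6, scipy 1.17.1 and, for plots, matplotlib 3.10.9, and TMM factors came from edgeR 4.0.16 in R 4.3.3. No test across genes was run. Alternatives were other pseudocounts, filters, fold thresholds and scalings.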

Additional observations from a re-analysis of the deposited data

How the results depend on the processing

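The median ratio scaling, the filters of 5 FPKM and 0.1 FPKM, no filter, a pseudocount of 5, a 3-fold threshold and removal of the length trend gave 3 members past the threshold on the higher side and 0 on the lower side, as in the main comparison. The higher count was 7 with a pseudocount of 0.1, 7 without a pseudocount and 12 at 1.5-fold. It was 9 as TPM, 8 as CPM with TMM scaling and 8 as unscaled CPM. Of all genes, 5.14%, 5.36%, 12.2%, 8.72%, 4.51% and 4.08% were higher in these settings, in that order. The lower count was 1 with a pseudocount of 0.1, without a pseudocount and in both CPM settings, and 2 at 1.5-fold. Of all genes, 7.65% were lower with a pseudocount of 0.1, 8.29% without one and 11.5% at 1.5-fold. As CPM, 6.21% were lower with TMM scaling and 6.70% unscaled. The added members include CMPK2, OASL, MX1 and IFIT1 on the higher side and SAMD9L on the lower. The TPM and CPM settings apply the filter of 1 to their own unit, so 42 and 43 members pass. The median log2 change of the members was 0.49 as TPM, 0.37 as CPM with TMM scaling, 0.33 as unscaled CPM and 0.045 when the totals excluded mitochondrial genes. The median of all genes was 0.20 as TPM and −0.10 with mitochondrial genes left out, so the members lay 0.29 and 0.15 above it, beside 0.15 in the main comparison. Over all settings this gap ran from 0.014 with the filter of 5 FPKM to 0.35 as CPM with TMM scaling. It was 0.087 with at least 1 FPKM in both libraries.

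Over all genes, the counts higher and lower were 393 and 408 in the main comparison, 644 and 958 with a pseudocount of 0.1, 142 and 110 with a pseudocount of 5, 668 and 1034 without one, 1526 and 1444 at 1.5-fold, 87 and 114 at 3-fold, 1432 and 873 as TPM, 686 and 945 as CPM with TMM scaling and 622 and 1021 as unscaled CPM. Leaving out IRF9 and IFITM1, which share sequence, gave a median of 0.13 over 38 members. With at least 1 FPKM in both libraries, 34 members gave the same counts and a median of 0.13. These settings and the one without a pseudocount were chosen after seeing the data. No paired analysis was possible because each condition has 1 library and the libraries share no replicate number. The limit of these data is that single pair. Depth was sufficient for most members, but not for DHX58, MX2 and XAF1, each with at most 19 counts in a library, and IRF7 had none.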

Other observations

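The deposited annotation assigns 45 genes to the gene ontology term type I interferon signaling pathway, of which 26 had at least 1 FPKM. The term held 2 genes at least 2-fold higher and 0 at least 2-fold lower, beside 3.14% and 3.26% of all genes. Its 10 measured genes outside the interferon-stimulated genes described here had a median log2 change of 0.04, and none was past 2-fold. The wider term defense response to virus has 128 genes, 79 of them measured. Of its 62 measured genes outside the list, 1 was at least 2-fold higher, CRCP, and 5 were at least 2-fold lower, namely DMBT1, FAM111A, SLFN11, TRIM52 and TRIM56, beside the same shares of all genes. Their median log2 change was −0.10. These terms were read after the members' values were known, and they share genes with the lists above.

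Among genes that sense nucleic acids or restrain the response, IFI16, a DNA sensor, was at 39.8 FPKM in shCtrl and 19.8 FPKM in shESE1 (−0.97), and SOCS3, a feedback inhibitor of JAK kinases, at 10.4 and 4.78 FPKM (−0.97). Both had ratios past 2-fold without a pseudocount, at 0.496 and 0.461. SAMHD1, which depletes nucleotides, was at 1.14 and 2.15 FPKM, and TYMP, a thymidine phosphorylase, at 2.24 and 4.40 FPKM (0.74). TYMP had the largest positive change of the 63 measured genes of the wider list.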
